A study of Homo sapiens with 6 samples.

Results

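MicroRNA genes whose symbols carry a number of at least 4 digits are the later entries of the human microRNA catalogue, most of them annotated from small RNA sequencing. They were followed here in nascent RNA of A375 cells, an established human malignant melanoma line. A gene was taken where its symbol began with MIR and 4 digits and did not name a host gene. The deposited tables hold 255 rows of 202 such symbols. With the row of highest mean gene body density kept per symbol, and rows of identical values counted once, 193 genes remained of 12429 genes in all.

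The assay was global run-on sequencing (GRO-seq), in which engaged RNA polymerases extend their transcripts in isolated nuclei. Cells received 25 µM leflunomide, 25 µM A771726 or the solvent DMSO for 48 h, with 2 replicates in each of the 3 groups. The prodrug leflunomide carries an isoxazole ring, which is opened in its active metabolite A771726, also called teriflunomide. The active metabolite inhibits dihydroorotate dehydrogenase, an enzyme of pyrimidine synthesis. The series concerns HEXIM1, an inhibitor of the elongation kinase P-TEFb, in melanoma after this inhibition. All groups are the same line at the same time, and nothing in the labels says whether the replicates were separate cultures, so p-values measure the spread between these libraries only.

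A microRNA begins as a longer primary transcript, often the transcript of a host gene. The Microprocessor complex of DROSHA and DGCR8 cuts out a hairpin, DICER1 trims it, and a mature strand of about the length of the sequences shown here is loaded into an Argonaute protein. Bases 2 to 8 of the mature strand, the seed, pair with target messenger RNAs. GRO-seq counts polymerases on the primary transcript and does not measure the mature microRNA.

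The sequences below belong to the genes on which the results turn. They come from RefSeq (GRCh38.p14), which held 197 of the 202 symbols by accession, 183 of them with a mature sequence. Capitals mark the seed. The first set is of the densest genes with a sequence and of the gene with the lowest limma p-value for A771726 over DMSO among the 39 genes in that fit, MIR1248.
hsa-miR-4521: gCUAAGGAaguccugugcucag
hsa-miR-4638-5p: aCUCGGCUgcgguggacaagu
hsa-miR-4638-3p: cCUGGACAccgcucagccggccg
hsa-miR-4449: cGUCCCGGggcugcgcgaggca
hsa-miR-1248: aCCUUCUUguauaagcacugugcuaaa
The second set is of the genes with the lowest limma p-values between the 2 compounds among the same 39.
hsa-miR-3605-5p: uGAGGAUGgauagcaaggaagcc
hsa-miR-3605-3p: cCUCCGUGuuaccuguccucuag
hsa-miR-4754: aUGCGGACcuggguuagcggagu
hsa-miR-4721: uGAGGGCUccaggugacggugg
The third set pairs some of the genes that share a seed, whose values are given below.
hsa-miR-4426: gAAGAUGGacguacuuu
hsa-miR-4647: gAAGAUGGugcugugcugaggaa
hsa-miR-4667-5p: aCUGGGGAgcagaaggagaacc
hsa-miR-4700-5p: uCUGGGGAugaggacagugugu
hsa-miR-3183: gCCUCUCUcggagucgcucgga
hsa-miR-4723-3p: cCCUCUCUggcuccuccccaaa
The fourth set is of mature strands encoded by the MIR3180 copies on chromosome 16. The shorter strand is that of MIR3180-4 and MIR3180-5.
hsa-miR-3180-5p: cUUCCAGAcgcuccgccccacgucg
hsa-miR-3180-3p: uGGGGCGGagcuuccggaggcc
hsa-miR-3180: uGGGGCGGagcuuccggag

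Over 245 mature sequences the median length was 22 bases, from 17 to 27, and the median GC content was 59.1%. U was the first base of 93 of them (38.0%). Seeds were shared little: the 245 sequences held 238 different seeds, and 10 seeds occurred in more than 1 gene. GC content of the hairpin had little relation to the values (Spearman's rho over 163 genes 0.13 with leflunomide density, 0.16 with A771726 density and 0.12 with DMSO density). These coefficients are across genes, which are not independent replicates.

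What a gene body density means for so short a gene was read from the values themselves. In 108 of the microRNA genes both a promoter and a gene body value could be written as whole reads, and 1 promoter read was worth a median of 4.64 times 1 gene body read. This ratio increased with the annotated hairpin length by 0.00164 per base. With both windows counted in bases, the promoter window came to 611 bases (594 to 636) and the gene body window to the hairpin plus 2754 bases. The hairpins had a median length of 80 bases, so the gene body value of a microRNA gene is almost wholly that of about 2.75 kb of flanking sequence and not of the hairpin. The sources used here do not state these windows.

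**Figure D1:**
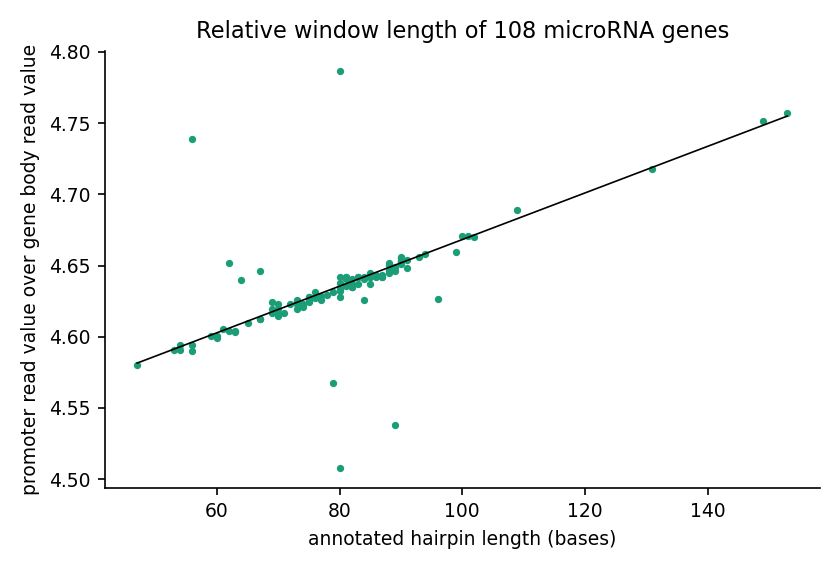
Value of 1 promoter read over that of 1 gene body read (y axis, a ratio of densities) against annotated hairpin length in bases (x axis), 1 point for each of 108 microRNA genes, with a fitted line. Most points follow the line, with a median absolute residual of 0.0496%, and a few lie off it.

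In the RefSeq annotation 128 of the 193 genes lay inside another gene on the same strand, 110 in protein-coding genes and 18 in long non-coding RNA genes. By GENCODE exons on the same build, 90 of these hairpins were intronic, 25 were exonic and 13 crossed an exon border. Another 36 lay inside a gene on the opposite strand only, 24 lay between genes and 5 had no match. Most chromosomes held some, with 17 on chromosome 17, 15 on chromosome 1 and 14 on chromosome 19. Hairpins that overlap on opposite strands had separate values: MIR3913-2 had a mean gene body density of 0.112 with leflunomide, 0.103 with A771726 and 0.107 in DMSO, against 0.00895, 0.00775 and 0.0252 in the same groups for MIR3913-1.

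Densities are the authors' means over the 2 libraries of a group, in a unit that is not named, and so carry no SD. Over the 193 genes the median gene body density was 0.0359 with leflunomide, 0.0298 with A771726 and 0.0433 in DMSO. The other 12236 genes had lower medians of 0.0186, 0.0127 and 0.0193 in the same groups. Behind the microRNA values stood few reads: the median gene body value corresponded to 4.61 reads per library with leflunomide, 4.98 with A771726 and 4.20 in DMSO. Fewer cells contributing and less RNA per cell cannot be told apart in such bulk libraries.

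**Figure D2:**
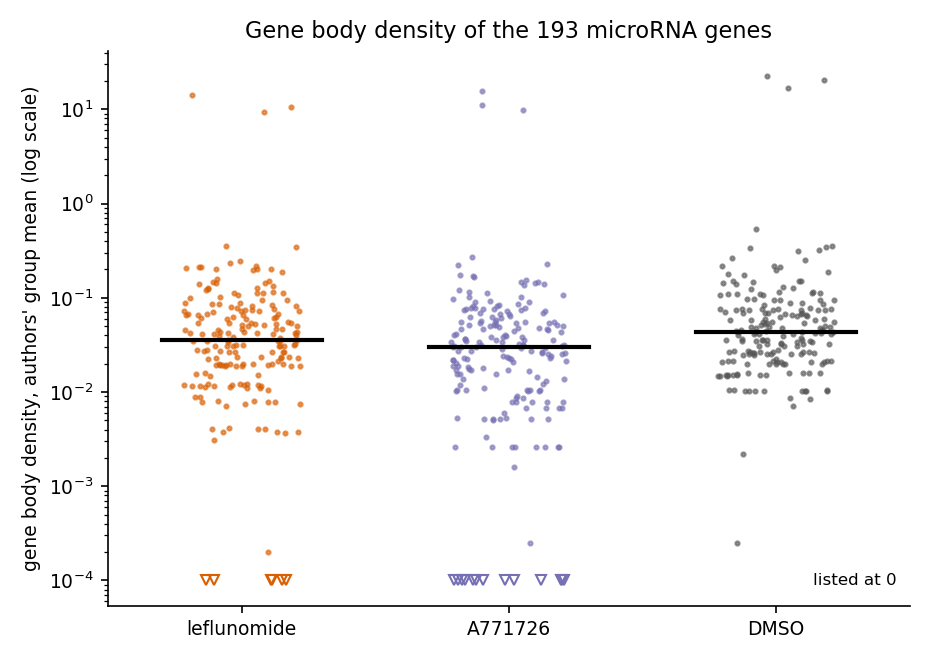
Mean gene body density of each of the 193 microRNA genes (y axis, log scale) with leflunomide, A771726 and DMSO (x axis). Bars are medians (0.0359, 0.0298 and 0.0433), open triangles are genes listed at 0, and 3 genes lie far above the others in every group.

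The genes MIR4521, MIR3676 and MIR4638 together held most of the summed density, with 76.1% of it with leflunomide, 82.0% with A771726 and 82.6% in DMSO. MIR4521 had a mean gene body density of 10.7 with leflunomide, 11.1 with A771726 and 22.6 in DMSO. MIR3676 had 9.34 with leflunomide, 9.81 with A771726 and 20.5 in DMSO. MIR4638 had 14.2 with leflunomide, 15.5 with A771726 and 16.8 in DMSO. The least dense of the 3 stood 26.6 times above the next microRNA gene with leflunomide, 36.2 times with A771726 and 31.1 times in DMSO.

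These 3 were also among the densest of all genes, at ranks 2 (MIR4521), 4 (MIR3676) and 5 (MIR4638) of 12429 by DMSO density. The MIR4521 hairpin overlaps a serine tRNA gene in RefSeq, and MIR4638 lies 99 bases from a valine tRNA gene. MIR3676 had no RefSeq match, so its distance from the other 2 was not known here. Gene body windows take in about 2.75 kb of flanking sequence. Whether those of MIR3676 and MIR4521, whose values were alike, hold the same reads was not tested. Reads in both windows would count in both values, in both ranks and in the summed density. MIR3676 and MIR4521 are known in the literature as fragments of tRNA precursors, which RNA polymerase III transcribes. The gene body folds of leflunomide over DMSO were 0.473 for MIR4521, 0.455 for MIR3676 and 0.848 for MIR4638, and those of A771726 over DMSO were 0.493, 0.479 and 0.926 in the same order. Promoter means had folds of 0.942 to 1.09 for leflunomide and 1.13 to 1.36 for A771726 over DMSO, which for MIR4638 with A771726 (1.28) is farther from 1 than its gene body fold. The traveling ratio (promoter over gene body density) of MIR4521 was 1.21 with leflunomide and 1.53 with A771726, against 0.540 in DMSO. The library values of these 3 could not be recovered, so their folds have no replicate check.

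Below them came MIR4449, in an intron of the long non-coding RNA gene DANCR, with 0.351 with leflunomide, 0.225 with A771726 and 0.539 in DMSO. MIR1292, at an exon border of the small nucleolar ribonucleoprotein gene NOP56, had 0.343 with leflunomide, 0.271 with A771726 and 0.351 in DMSO. MIR3193, between genes, had 0.245, 0.228 and 0.344 in the same groups. MIR1248, which overlaps the small nucleolar RNA SNORA81 in an intron of the translation initiation factor gene EIF4A2, had 0.235 with leflunomide, 0.121 with A771726 and 0.337 in DMSO. The next were MIR1539, MIR4647 in an exon of the sulfate donor transporter gene SLC35B2, and MIR4749 in an intron of PTOV1. A small nucleolar RNA gene lay within 3 kb of 7 microRNA genes.

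Leflunomide against DMSO. In the group means most later annotated microRNA genes had a slightly lower gene body density with leflunomide, and no gene passed the test. In the genes with library values this direction depended on single libraries, as given below. Of 180 genes past the filter on low values, the median log2 change was −0.26, against −0.06 over all 8700 genes past it. At least 2-fold higher means were found in 11 of the 180 (6.11%), against 1.84% of all genes, and at least 2-fold lower means in 33 (18.3%), against 4.49% of all genes. Centring on the median gene gave 12 genes at least 2-fold higher (2.25% of all genes) and 30 lower (3.9%). Each change compares 2 group means on the log2(density + 0.0022) scale, on which the change of low genes is understated.

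The wider spread went with few reads. Of the 33 lower genes, 19 had under 5 reads per library in both groups, 12 had a leflunomide library at 0 and 2 were listed at 0 in both. Among the 90 denser of the 180 genes 5 were higher and 10 lower, against 6 and 23 among the 90 less dense. The part of read number in the wider spread was not tested.

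The highest change was that of MIR3194, in an intron of the transcription factor gene NFATC2. Its leflunomide libraries had gene body densities of 0.0525 and 0.0569, against 0.0104 and 0.0189 in DMSO, a log2 change of 1.76 between the means. NFATC2 itself had means of 0.0559 with leflunomide and 0.0525 in DMSO. The groups did not overlap for MIR3194, although few reads lay behind its DMSO values.

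MIR3605, at an exon border of the Polycomb gene PHC2, had 0.169 and 0.245 with leflunomide, against 0.0668 and 0.103 in DMSO. Its log2 change of the means was 1.27, and limma gave 1.28 (95% confidence interval 0.30 to 2.25) with an adjusted p of 0.999. PHC2 itself had nearly equal means of 0.190 and 0.202 in the 2 groups. The other highest changes were those of MIR2276, MIR1914, MIR4670, MIR3677, MIR4797 and MIR4667, with log2 changes from 1.06 to 1.57.

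At the low end MIR3121 and MIR3132 were listed at 0 in both leflunomide libraries, against means of 0.0263 and 0.0207 in DMSO. MIR4258, in an intron of the cell cycle gene CKS1B, had 0 and 0.0242 with leflunomide, against 0.0498 and 0.101 in DMSO. MIR4722, in an intron of the ion channel gene PIEZO1, had 0 and 0.0082 with leflunomide, against 0.0226 and 0.0571 in DMSO. In both genes the groups did not overlap, and a leflunomide library was at 0. MIR1908, in an exon of the fatty acid desaturase gene FADS1, had 0.0396 and 0.0811 with leflunomide, against 0.142 and 0.146 in DMSO.

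limma, a linear model fitted over all genes with known library values, held 39 of the microRNA genes among 3064. It called none of them and none of all genes (0%) for leflunomide over DMSO. The median log2 change of the 39 was −0.12. It was 0.08 without DMSO library 1 and 0.01 without leflunomide library 1. Without DMSO library 2 it was −0.38, and without leflunomide library 2 −0.11. At an unadjusted p under 0.05 stood 6 of the 39, where 4.54% of all genes did: MIR4258, MIR1469 and MIR1908 lower and MIR3605, MIR4284 and MIR4754 higher. Their smallest adjusted p in limma was 0.999. Without DMSO library 2 the 6 became 3 (3.23% of all genes).

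Library pairs were known in all groups for 69 genes past the filter. Both leflunomide libraries lay above both DMSO libraries in 8 of them, where 13.6% of all such genes did, and below in 18, where 20.9% did. These counts lie close to those shares.

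A771726 against DMSO. With A771726 the densities were lower in most of these genes, as they were over all genes, and no gene passed the test. The median log2 change of the 180 genes was −0.61, against −0.52 over all genes. At least 2-fold lower were 61 of the 180 (33.9%), against 18.5% of all genes, and at least 2-fold higher were 3 (1.67%), against 0.839% of all genes. On a scale centred on the median gene, 34 were at least 2-fold lower (5.72% of all genes) and 16 higher (3.6%), so the split between the directions depends on this shift.

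Zeros were frequent. In 58 of the 193 genes (30.1%) at least 1 A771726 library had a gene body value of 0, against 32 (16.6%) with leflunomide. Of the other genes 8.07% and 4.23% did so. The deposited rows hold no DMSO gene body of 0 and no DMSO ratio that is not finite. A library at 0 leaves the mean ratio without a finite value, so no such library could occur in DMSO. The part of this selection in the counts was not tested. Of the 61 lower genes 31 had under 5 reads per library in both groups.

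Both A771726 libraries were at 0 in 7 of the 180 genes, MIR1206, MIR2110, MIR3155B, MIR3183, MIR3944, MIR4755 and MIR4797. MIR4755, in an intron of the RNA-binding protein gene RALY, had 0.0189 and 0.0450 in DMSO. MIR2110, in an exon of CCDC186, had 0.0189 and 0.0562 in DMSO. By whole-read steps the DMSO libraries held 2 and 4 gene body reads of MIR4755 and 2 and 5 of MIR2110, so a group at 0 is here a difference of few reads. When genes of unknown library order were added to limma, MIR4755 had the lowest p of the 69 microRNA genes then fitted, with an adjusted p of 0.151. Its fitted log2 change of −3.84 depends on the pseudocount, since both A771726 libraries are at 0.

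Among genes with more reads, MIR1248 had 0.115 and 0.127 with A771726, against 0.337 in both DMSO libraries, as recovered. The recovery checked only promoter values against whole reads. MIR1248 was not among the 108 genes whose gene body values were read as whole reads. That reading was limited to low read counts, which leaves out a gene as dense as MIR1248 whatever its values. Its library values, and the limma result on them, were thus not checked in this way. Being recovered, they are less certain than its means. As recovered the groups lay far apart, and the means rested on 20.5 reads per library with A771726 and 32.9 in DMSO. The log2 change in limma was −1.46 (95% confidence interval −2.11 to −0.81), with an adjusted p of 0.150 over all genes. Its host EIF4A2 had means of 0.177 with A771726 and 0.415 in DMSO, a log2 change of −1.22.

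MIR4426, between genes, had 0.0776 and 0.0852 in the A771726 libraries, against 0.217 and 0.286 in the DMSO libraries, a log2 change of the means of −1.60. It entered limma only when genes of unknown library order were added, with an adjusted p of 0.151. MIR4426 and MIR1304, too, were not among the genes whose gene body values were read as whole reads. MIR4721, at an exon border of the mitochondrial elongation factor gene TUFM, had 0.0202 and 0.0259 in the A771726 libraries, against 0.0559 and 0.0753 in the DMSO libraries. limma gave −1.42 (95% confidence interval −2.24 to −0.60) with an adjusted p of 0.150, while the means of TUFM gave a log2 change of −0.67. MIR1304, in an intron of the RNA polymerase I factor gene TAF1D, had 0.114 and 0.117 in the A771726 libraries, against 0.168 and 0.263 in the DMSO libraries.

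Higher with A771726 than in DMSO were few. MIR1204, the first of 4 microRNA genes in PVT1, a long non-coding RNA gene next to MYC, had 0.0475 and 0.104 in the A771726 libraries, against 0.0190 and 0.0338 in the DMSO libraries. The libraries did not overlap, but limma gave 1.40 with a 95% confidence interval of −0.54 to 3.33. Of the other genes of PVT1, MIR1205 was higher too but by less, with means of 0.0395 with A771726 and 0.0265 in DMSO (log2 change 0.54). The remaining genes did not share this direction: MIR1206 was listed at 0 against 0.0417, and MIR1207 had 0.0298 against 0.0357. PVT1 itself had 0.0170 against 0.0231.

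MIR3677, in an intron of its own host transcript MIR3677HG, had the highest change, with means of 0.0406 with A771726 and 0.0104 in DMSO and no recovered library values. The remaining highest changes were those of MIR3661, MIR1914, MIR3074, MIR4670, MIR4741 and MIR3138, with log2 changes from 0.81 to 1.14.

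limma called none of the 39 microRNA genes and none of all genes (0%) for A771726 over DMSO. At an unadjusted p under 0.05 stood 5 of the 39, all lower, where 20.8% of all genes did: MIR1248, MIR4721, MIR1304, MIR4754 and MIR3187. This count was 10 without A771726 library 1 (30.6% of all genes) and 8, of which 2 were higher, without DMSO library 2 (14.3%). With libraries centred on their medians it was 2 (7.57%). In the 69 genes with known pairs both A771726 libraries lay below both DMSO libraries in 24, where 55% of all such genes did, and above in 3, where 1.86% did. These microRNA genes were thus lower in both libraries in a smaller share than genes at large. In the group means the share at least 2-fold lower was the larger one, with 33.9% of the 180 against 18.5% of all genes. Neither difference was tested, nor was the part of read number in them.

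**Figure D3:**
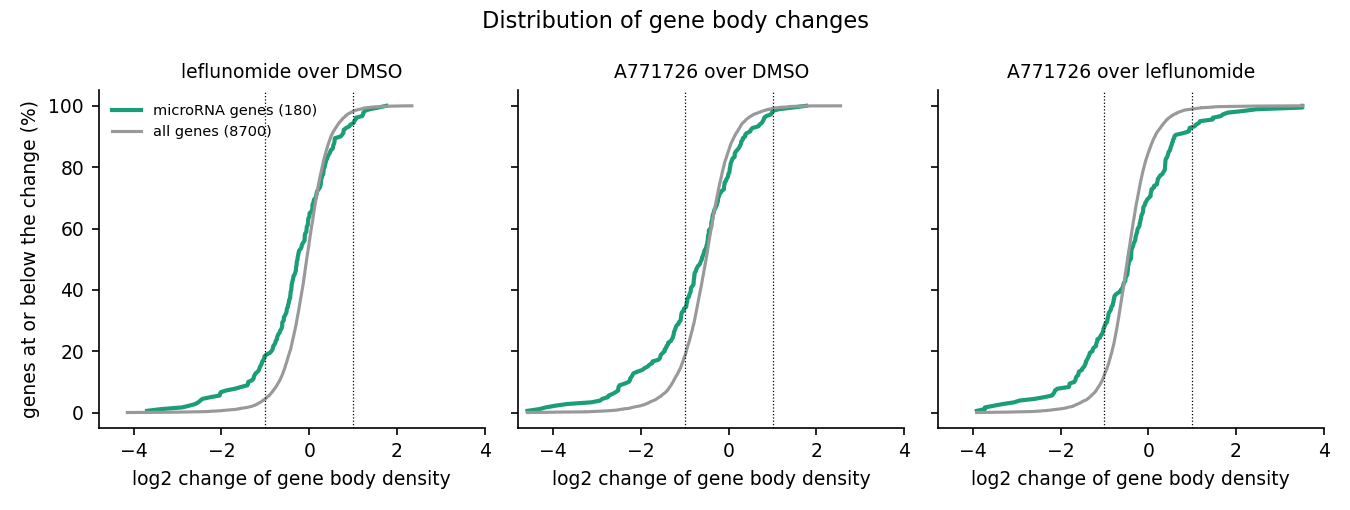
Share of genes in percent (y axis) at or below each log2 change of mean gene body density (x axis) for 180 microRNA genes and all 8700 genes past the filter, in 3 comparisons. Dotted lines mark 2-fold. The microRNA curve is wider on both sides, with medians of −0.26, −0.61 and −0.40 against −0.06, −0.52 and −0.47.

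A771726 against leflunomide. The compounds were given at the same dose and time, and this was the only compound pair compared. Densities were mostly lower with A771726, by a median log2 change of −0.40 over the 180 genes, against −0.47 over all genes. At least 2-fold lower were 50 of the 180 (27.8%), against 12.3% of all genes, and higher 13 (7.22%), against 1.03% of all genes. Relative to the median gene, 26 were lower (3.77% of all genes) and 24 higher (3.36% of all genes).

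Among the 39 genes in limma, 3 had the lowest p-values between the compounds. MIR3605 had 0.0335 and 0.0619 with A771726, against 0.169 and 0.245 with leflunomide, a log2 change in limma of −2.11 (95% confidence interval −3.08 to −1.13). MIR4754, between genes, had 0.0517 and 0.0741 with A771726, against 0.178 and 0.224 with leflunomide, and limma gave −1.65 (−2.43 to −0.87). MIR4721 had 0.0202 and 0.0259 with A771726, against 0.0746 and 0.0971 with leflunomide, and limma gave −1.80 (−2.62 to −0.98). In all 3 genes the groups did not overlap, yet the adjusted p of each was 0.341 in limma, which called none of the 39 genes and none of all genes (0%). With genes of unknown library order added, MIR4755 came before them, with A771726 libraries at 0 against 0.0163 and 0.0375 with leflunomide and an adjusted p of 0.319.

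At an unadjusted p under 0.05 stood 7 of the 39, where 14.6% of all genes did. Besides these 3 they were MIR1248, MIR1282 and MIR1304, all lower, and MIR4258, which had 0.0606 and 0.0634 with A771726 and 0 and 0.0242 with leflunomide. The count was 11 without A771726 library 1 (26.4% of all genes) and 4 without A771726 library 2 (7.60%). Intervals were wide where p missed this threshold: for MIR1292 limma gave −0.35 (95% confidence interval −1.48 to 0.77), and for MIR1908 0.27 (−0.92 to 1.47), both reaching past 2-fold in 1 direction. Over the 69 genes with known pairs both A771726 libraries lay below both leflunomide libraries in 16, where 54.5% of all such genes did, and above in 3, where 2.18% did.

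**Figure D4:**
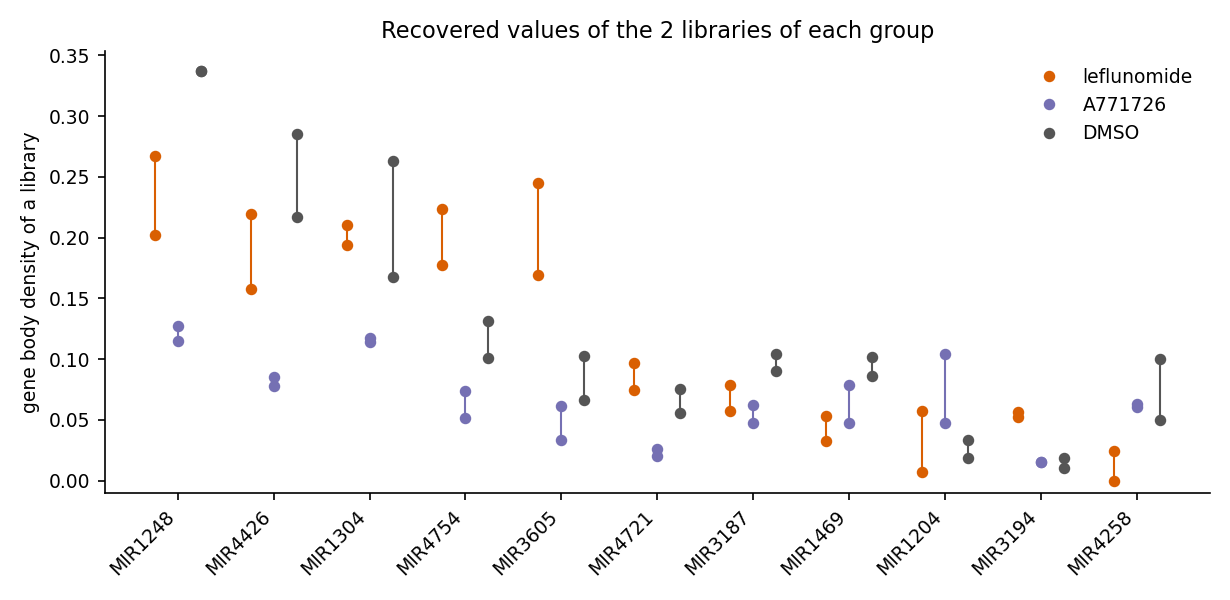
Recovered gene body density of the 2 libraries of each group (y axis) for 11 microRNA genes (x axis), with leflunomide, A771726 and DMSO from left to right and a line joining the libraries of a group. The choice of genes followed their values; A771726 lies below both other groups for MIR1248, MIR4426, MIR1304, MIR4754, MIR3605 and MIR4721.

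Host genes. For 101 of the microRNA genes the host was in the tables too, with 95 different hosts. The density of the microRNA gene was close to that of its host: the median log2 ratio of microRNA gene over host was 0.03 with leflunomide, 0.16 with A771726 and 0.17 in DMSO. The microRNA gene was at least 2-fold denser than its host in 15 pairs with leflunomide, 22 with A771726 and 18 in DMSO, and at least 2-fold less dense in 16, 23 and 11 pairs of the same groups. Spearman's rho across these pairs was 0.63 with leflunomide, 0.59 with A771726 and 0.60 in DMSO, as a description across genes that share libraries and, in part, reads. Exceptions in DMSO were MIR3654 in CHCHD3 (0.111 against 0.0132 in the host), MIR4301 in the dopamine receptor gene DRD2 (0.0766 against 0.00895) and, in the other direction, MIR1292 in NOP56 (0.351 against 1.87). These were named after their values were seen.

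The changes of microRNA genes and hosts had like medians with A771726 over DMSO, while with leflunomide over DMSO the microRNA genes had the lower median. In 96 pairs past the filter the median with A771726 over DMSO was −0.48 for the microRNA genes and −0.52 for the hosts, and with leflunomide over DMSO −0.29 and −0.08. Single microRNA genes varied more: 31 were at least 2-fold lower with A771726 against 15 of the hosts, and with leflunomide 21 against 1. Hosts are longer and their densities rest on more sequence. By place, 24 genes between others had median changes of −0.47 with leflunomide over DMSO, −0.95 with A771726 over DMSO and −0.16 with A771726 over leflunomide. For 31 genes on the opposite strand of a gene these were −0.07, −0.65 and −0.59, and for 122 genes inside a gene on its strand −0.26, −0.48 and −0.41. The order of the places thus differed between the comparisons.

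**Figure D5:**
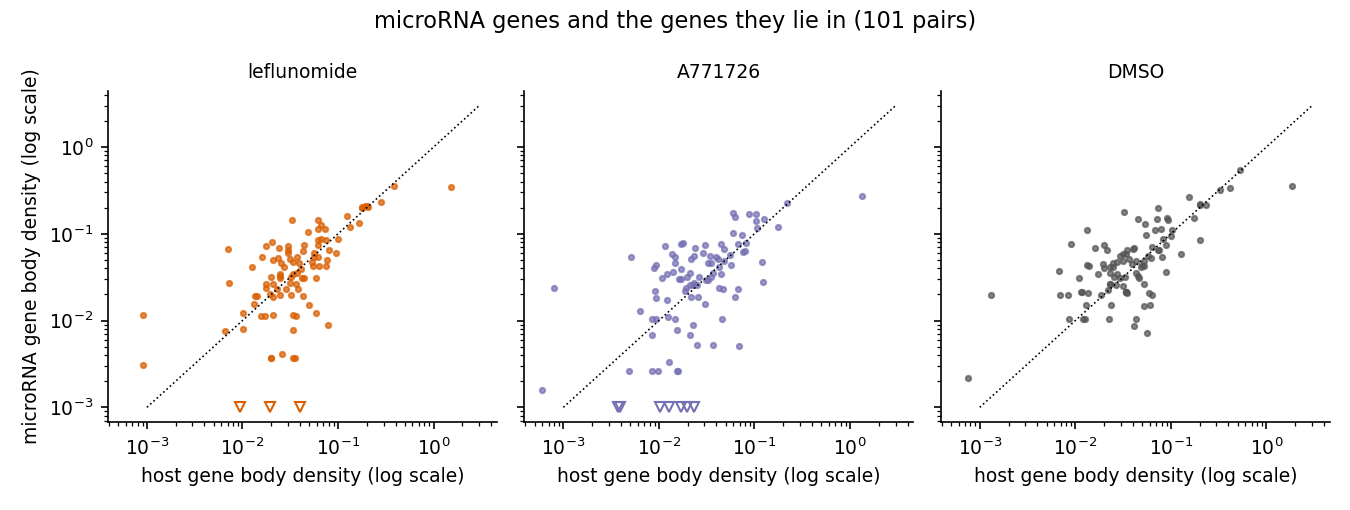
Mean gene body density of 101 microRNA genes (y axis, log scale) against that of the gene each lies in (x axis, log scale) with leflunomide, A771726 and DMSO. The dotted line marks equal density, and open triangles at the lower edge are microRNA genes listed at 0; most points lie along the line.

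Genes that share a transcript had like values in some cases and not in others. MIR3064 and MIR5047, in introns of DDX5, a helicase that works with the Microprocessor, had means of 0.198 and 0.201 with leflunomide, 0.142 and 0.169 with A771726, and 0.212 and 0.220 in DMSO. MIR1306 and MIR3618, in an exon of DGCR8, had 0.0078 and 0.0115 with leflunomide, 0.0255 and 0.0358 with A771726, and 0.0215 each in DMSO. The values of MIR1306 and MIR3618 rest on few reads per library. MIR4763 and MIR3619 lie in MIRLET7BHG, the host transcript of let-7 genes, and had 0.127 and 0.0867 with leflunomide, 0.0669 and 0.0485 with A771726, and 0.199 and 0.0647 in DMSO, where they lay apart.

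Genes that share a seed had like changes in some of the pairs shown and not in others. Only some of the shared seeds are shown, and a relation of seed and density was not tested. MIR4426 and MIR4647, whose strands share AAGAUGG, were both at least 2-fold lower with A771726 than in DMSO in their means (log2 changes −1.60 and −1.10). MIR4667 and MIR4700, which share CUGGGGA, had −2.25 and −1.50 with A771726 but 1.06 and −0.51 with leflunomide. MIR3183 was listed at 0 with A771726, while MIR4723, with which it shares CCUCUCU, had 0.0459 with A771726 and 0.0263 in DMSO.

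Copies cannot be told apart where their sequence is the same, and 15 symbols in 6 sets had identical values. MIR3180-1, which stands also for MIR3180-3, had 0.0521 and 0.0935 with leflunomide, 0.0470 and 0.0568 with A771726, and 0.0470 and 0.101 in DMSO. MIR3180-2 had nearly the same values. MIR3180-4 had 0.0079 and 0.0130 with leflunomide, 0.0132 and 0.0304 with A771726, and 0.0276 and 0.109 in DMSO. Its leflunomide libraries lay below both DMSO libraries, where the groups of MIR3180-1 overlapped. From A771726 they were apart only by 0.0130 against 0.0132. That gap is far less than 1 gene body read, which was worth about 0.0075 and 0.0081 in the leflunomide libraries. How reads that match several copies were counted is not given in the sources used here, and these values are uncertain.

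The median promoter density of the 193 genes was 0.0362 with leflunomide, 0.0151 with A771726 and 0.0260 in DMSO, about the value of 1 read or less. Promoter is the authors' name for this window. For the 128 genes inside another gene on the same strand it can lie within the host's transcript. There it need not hold a promoter of the microRNA gene. One promoter read was worth 0.0347 and 0.0376 in the leflunomide libraries, 0.0241 and 0.0313 in the A771726 libraries, and 0.0438 and 0.0520 in the DMSO libraries. The mean was 0 in 60 of the 193 genes with leflunomide, 77 with A771726 and 70 in DMSO. Of 154 genes past the promoter filter, 42 were at least 2-fold higher with leflunomide than in DMSO (30.6% of all genes) and 29 lower (16%). With A771726 over DMSO 28 were higher (20.8%) and 55 lower (26.1%), and with A771726 over leflunomide 17 were higher (13.5%) and 57 lower (30.6%). Centred on the median gene, the split for leflunomide over DMSO turned round, with 29 higher (22% of all genes) and 35 lower (19.7%). That for A771726 over leflunomide became 28 higher (19.3%) and 41 lower (21%), and that for A771726 over DMSO did not move. As shares of the 154 the counts before centring were 27.3% and 18.8%, 18.2% and 35.7%, and 11.0% and 37.0%. limma called 0 of the 39 genes in each comparison, with 0, 1 and 0 of them at an unadjusted p under 0.05 (2.22%, 3.52% and 2.35% of all genes). Of all genes 0%, 0% and 0.0326% were called.

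MIR3193, between genes, and MIR3175, at an exon border of the chromatin remodeller gene CHD2, had the highest promoter means after MIR3676, MIR4638 and MIR4521. MIR3193 had 0.810 with leflunomide, 0.825 with A771726 and 0.614 in DMSO. MIR3175 had 0.823 with leflunomide, 0.587 with A771726 and 0.824 in DMSO. It lies inside CHD2 on the same strand, so this value need not be that of a promoter of its own.

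The traveling ratio, which divides promoter by gene body density, could be compared in 66 genes with a finite ratio above 0 in every group. Its median log2 change was 0.41 with leflunomide over DMSO, against 0.27 over all 5168 genes, and 0.03 with A771726 over DMSO, against 0.42. At least 2-fold higher with leflunomide were 20 (27.9% of all genes) and lower 13 (15.3%). With A771726 over DMSO 17 were higher (34.6%) and 22 lower (17.1%), and over leflunomide 10 were higher (26.8%) and 24 lower (20.9%). As shares of the 66 these counts were 30.3% and 19.7%, 25.8% and 33.3%, and 15.2% and 36.4%. After centring, leflunomide over DMSO gave 16 higher (21.2%) and 16 lower (20.8%), and A771726 over DMSO 11 higher (24%) and 25 lower (24.1%). For A771726 over leflunomide it gave 10 higher (22.9%) and 26 lower (23.8%). The rows were selected on DMSO, where no ratio exceeds 7.5, and the part of this selection in the changes was not tested. For genes inside a host on the same strand the ratio need not describe a promoter of their own.

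MIR4763 had the highest ratio change with both compounds, with ratios of 0.206 with leflunomide and 0.384 with A771726, against 0.00532 in DMSO. Its DMSO promoter mean of 0.00105 is far below the value of 1 read, so this ratio has no firm base. The ratio of MIR3605 was 8.09 with A771726, against 1.03 in DMSO, while that with leflunomide was 0.616. Others at the high end were MIR3917 (4.99 with leflunomide against 0.291 in DMSO) and MIR1244-1, whose 3 copies share values (4.86 with A771726 against 0.211 in DMSO). At the low end MIR3619 had 0.0255 with A771726, against 0.843 in DMSO, and MIR4658 had 0.0678 with leflunomide, against 1.30 in DMSO.

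The proteins that make and use microRNAs were set beside them. Of 22 genes of this pathway 14 were in the tables, and 1 was at least 2-fold lower in mean gene body density with leflunomide or with A771726 than in DMSO, RAN, the GTPase of hairpin export, with 0.0608 with leflunomide, 0.0400 with A771726 and 0.140 in DMSO. That is 1 of 14 in each comparison, where 4.49% of all genes were that much lower with leflunomide and 18.5% with A771726. The median log2 change of the 14 was 0.01 with leflunomide and −0.59 with A771726 over DMSO. DGCR8 had 0.0337 with leflunomide, 0.0213 with A771726 and 0.0338 in DMSO. DICER1 had 0.0121 with leflunomide, 0.00795 with A771726 and 0.0082 in DMSO. As a check of the line, 5 of 8 melanoma and melanocyte genes were in the tables. The neural crest factor gene SOX10 had 0.330 with leflunomide, 0.273 with A771726 and 0.329 in DMSO, and held most of their summed density of 0.408, 0.343 and 0.4065 in the same groups. Most of the others were low: in DMSO MITF had 0.0123, PMEL 0.0103 and MLANA 0.0152, below the 0.0204 of the keratin gene KRT14. PAX3 lay above KRT14, with 0.03985 in DMSO. TYR, DCT and TYRP1 had no row in the tables used here. Of 2 genes of dedifferentiated melanoma, AXL had 0.0544 and NGFR 0.0134 in DMSO. Of 8 genes of other cell types 4 were in the tables, with summed densities of 0.0280, 0.0207 and 0.0373 in the same groups.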

How the data were processed

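GRO-seq was measured in A375 cells given leflunomide, A771726 or DMSO. The submitters' processing notes name the build hg18, Bowtie 0.12.9 and bedtools. Per the file headers, the authors deposited mean promoter and gene body signal (read densities) per group and the mean traveling ratio per group, with its fold over DMSO. A header spelled A771762 was read as A771726. The deposited rows had been selected on DMSO: every DMSO ratio is finite, none exceeds 7.5, and no DMSO gene body is 0. No source used here gives the depth of the libraries.

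The filter on low values was the 30th percentile of row means (gene body 0.00871, promoter 0.00627). Log2 changes of means used pseudocounts of 0.0022 and 0.01735, and none for ratios. Genes at least 2-fold different were counted without a test, since the columns are group means. Named genes were those with the 8 highest and 8 lowest gene body changes and the 4 highest and 4 lowest ratio changes per comparison, the 10 densest gene bodies, the 5 densest promoters, and genes sharing a seed or copies, with others named from the limma results. The members and lists were chosen with earlier results of these data known.

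Values of single libraries were recovered by solving the 2 mean densities and the mean ratio of a row for 2 libraries with densities of 4 decimals. Promoter values were checked against whole reads to place the libraries, and gene body values were not. Of rows with a promoter value and a finite ratio, 93.6% with leflunomide, 93.9% with A771726 and 90.5% in DMSO had 1 solution. The library with the smaller value of 1 promoter read is library 1, and matches no replicate letter. limma 3.58.1 (R 4.3.3) was fitted to log2(gene body density + 0.0022) of 3064 genes over all 6 libraries, with Benjamini-Hochberg adjustment and a threshold of 0.05. Recovery and limma were tested on simulated data. This recovery, and the test on it, were possible for part of the genes only, so counts from limma do not describe all 193. Settings tried were the pseudocount, the filter, centring, the row kept per symbol and each library left out. Hosts, exons and sequences came from RefSeq GRCh38.p14 and GENCODE v29, matched by accession, with no coordinates carried between builds.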

Additional observations from a re-analysis of the deposited data

Results flagged for a closer look

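MIR3605 and MIR4754 stood out because both leflunomide libraries lay above both DMSO libraries while both A771726 libraries lay below them. Of 69 microRNA genes with library values in every group these were 2 (2.90%), against 4.83% of all 4411 such genes in which the compounds lay on opposite sides of DMSO, so the share is not above that of genes at large. For MIR3605 the log2 change of the mean gene body density was 1.27 with leflunomide and −0.80 with A771726 against DMSO. For MIR4754 it was 0.78 with leflunomide and −0.86 with A771726. The difference between the compounds, which share their DMSO libraries, was tested as A771726 over leflunomide in limma and did not pass (adjusted p = 0.341 for both genes). Promoter means of MIR3605 were 0.126 with leflunomide, 0.315 with A771726 and 0.0917 in DMSO. Those of MIR4754 were 0.146 with leflunomide, 0.0121 with A771726 and 0.140 in DMSO.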

How the results depend on the processing

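The counts of genes at least 2-fold different depended most on the pseudocount. With a pseudocount 5 times larger, gene body counts were 26 for leflunomide over DMSO and 38 for A771726 over leflunomide, and promoter counts were 6, 10 and 15 for leflunomide over DMSO, A771726 over DMSO and A771726 over leflunomide. The stricter filter (50th percentile) left promoter counts of 30, 43 and 38 in the same order. The reported counts were 44 and 63 for gene bodies and 71, 83 and 74 for promoters. Counts of both directions together stayed within 1.5 times under the other settings. By direction, centring on the median gene moved gene body counts for A771726 over DMSO to 16 higher and 34 lower, against 3 and 61, and those for A771726 over leflunomide to 24 and 26, against 13 and 50. For promoters, leflunomide over DMSO moved to 29 and 35, against 42 and 29. No gene named by its gene body change turned round in sign. limma called 0 microRNA genes in each comparison under every setting run. With a library left out the count of microRNA genes called ranged from 0 to 0, while among all genes 101 were called lower for A771726 over DMSO without A771726 library 1. Genes of unknown library order and the lack of a filter were tried after seeing the data. No paired analysis was possible because the columns carry no replicate letters, so the planned replicate block was not run. The value of few reads per gene limits all single-gene statements, and a missed threshold does not show equal levels.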
